A study of Arabidopsis thaliana with 12 samples.

Results

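SWEET2, SWEET8 and SWEET16, which encode sugar transporters, and AT1G62660, a vacuolar invertase family gene, were followed across the 4 combinations of dexamethasone (DEX) and cycloheximide (CHX) in Arabidopsis root protoplasts. These 4 genes, of 13355 that a probe set named alone, were selected by name, with the brightest probe set standing for each gene, and each had 1 probe set. They had been picked with their values on these 12 arrays known. Their levels and changes are therefore given as a description, with no test.

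The study looked for direct and indirect targets of ABI3, a transcription factor best known for its role in seed maturation. Protoplasts, which are cells freed of their walls, came from roots of ecotype Columbia and had been transformed with a construct labelled ABI3-GR, whose product DEX moves into the nucleus. CHX, an inhibitor of translation, was added so that responses needing no new protein could be separated. The groups were cells with both treatments (10 µM DEX and 35 µM CHX), cells with CHX alone, cells with DEX alone and cells with neither, with 3 arrays each, and every sample is labelled as carrying the construct. The promoter that drives it is not given in the labels. Arrays of protoplasts without the construct were not analysed here, so effects of DEX itself and of ABI3 in the nucleus cannot be told apart. ABI3 is not named in the probe annotation used here, and no level is given for it. The labels do not say whether replicates were separate preparations, so the p-values below speak of the spread among these samples, which may be technical.

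SWEET proteins are membrane transporters that let sugars pass down their concentration gradient. Plants use them at the plasma membrane to release sugar from cells and at the tonoplast, the vacuole's membrane, to move sugar into or out of the vacuole. Vacuolar invertases split stored sucrose into glucose and fructose. SWEET2 and SWEET16 are tonoplast carriers active in roots, while SWEET8 is a plasma membrane carrier best known from pollen development.

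Per-array quality was uneven. Median intensity per array was 115.6 to 220.9, and between 2.84% and 17.9% of an array's probe sets read no higher than 16, the floor to which lower intensities were raised here. Replicate 1 of CHX alone had nearly no signal on its hybridisation controls (geometric mean 230.7, against 8733 to 15996 on the other arrays). Arrays of the same group correlated across probe sets at 0.893 to 0.950, those that differed only in DEX at 0.868 to 0.943, and those that differed in CHX at 0.759 to 0.834. Of 14 root marker genes listed, 1 was named in the annotation: PYK10, a beta-glucosidase gene of roots and seedlings, at intensities of 9180 to 11972 in cells with neither treatment. Of 8 leaf mesophyll markers, 1 was named, the Rubisco activase gene RCA, at 261.8 to 444.6 in the same cells.

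CHX divided the 4 genes by size and direction of change. In cells without DEX, SWEET8 was 49.5-fold and SWEET16 9.35-fold brighter with CHX, AT1G62660 was 32.6-fold dimmer, and SWEET2 was 1.47-fold brighter, in a direction that depended on the scaling of the arrays. With DEX the differences were 42.7-fold for SWEET8, 11.6-fold for SWEET16, 50.5-fold for AT1G62660 and 1.24-fold for SWEET2, in the same directions. For SWEET8, SWEET16 and AT1G62660 the differences between cells with and without DEX were far smaller than those between cells with and without CHX. In these bulk samples, fewer cells of a type and less RNA per cell cannot be told apart.

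SWEET8, also known as RPG1, encodes a glucose carrier first described in the making of the pollen wall. Its probe set read 3498, 3938 and 4746 on the arrays with both treatments and 2043, 4202 and 4226 with CHX alone. It read 83.8, 131.1 and 76.5 with DEX alone and 62.4, 36.8 and 130.3 with neither treatment. All 6 arrays with CHX were thus far above all 6 without it, and the lowest reading with CHX alone came from replicate 1, the array with weak hybridisation controls. The fitted log2 change was 5.63 (SE 0.42, n = 3 arrays per group) for CHX without DEX, a 49.5-fold difference, and 5.42 (SE 0.42), 42.7-fold, with DEX. Without that replicate the first value was 5.98. Its readings without CHX were dim, and with a floor of 64 the first value was 5.35 and the second remained 5.42.

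SWEET16 encodes a tonoplast carrier of glucose, fructose and sucrose found in vascular cells of roots. Its intensities were 1903, 1818 and 3568 with both treatments and 2665, 2376 and 3537 with CHX alone. They were 169.3, 212.8 and 217.7 with DEX alone and 258.8, 433.5 and 244.1 with neither. Again no array with CHX overlapped one without it. The log2 change for CHX was 3.23 (SE 0.29), 9.35-fold, without DEX and 3.54 (SE 0.29), 11.6-fold, with DEX.

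AT1G62660, whose product belongs to the enzymes that split sucrose in the vacuole, stood the other way. Its intensities were 118.2, 105.0 and 56.3 with both treatments and 146.9, 225.0 and 170.9 with CHX alone, against 4911, 4238 and 4331 with DEX alone and 5293, 6054 and 6115 with neither. Every array with CHX was below every array without it, and none of the readings was at the floor. The log2 change for CHX was -5.03 (SE 0.26), 32.6-fold lower, without DEX and -5.66 (SE 0.26), 50.5-fold lower, with DEX.

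SWEET2 encodes a tonoplast glucose carrier of root epidermal cells that limits loss of sugar from the root. It was bright on every array, at 8014, 9585 and 7199 with both treatments and 9660, 9316 and 11091 with CHX alone, against 6183, 6118 and 7613 with DEX alone and 6655, 6754 and 6974 with neither. The arrays with CHX alone were all above those with neither, by 0.56 on the log2 scale (SE 0.16, 1.47-fold). With DEX the arrays with and without CHX overlapped, at a log2 change of 0.31 (SE 0.16). The direction depended on how arrays were scaled: after quantile normalization the changes were -0.01 without DEX and -0.39 with DEX, and with arrays centred on their medians they were 0.69 and 0.80. No direction is given for SWEET2 beyond these values.

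**Figure D1:**
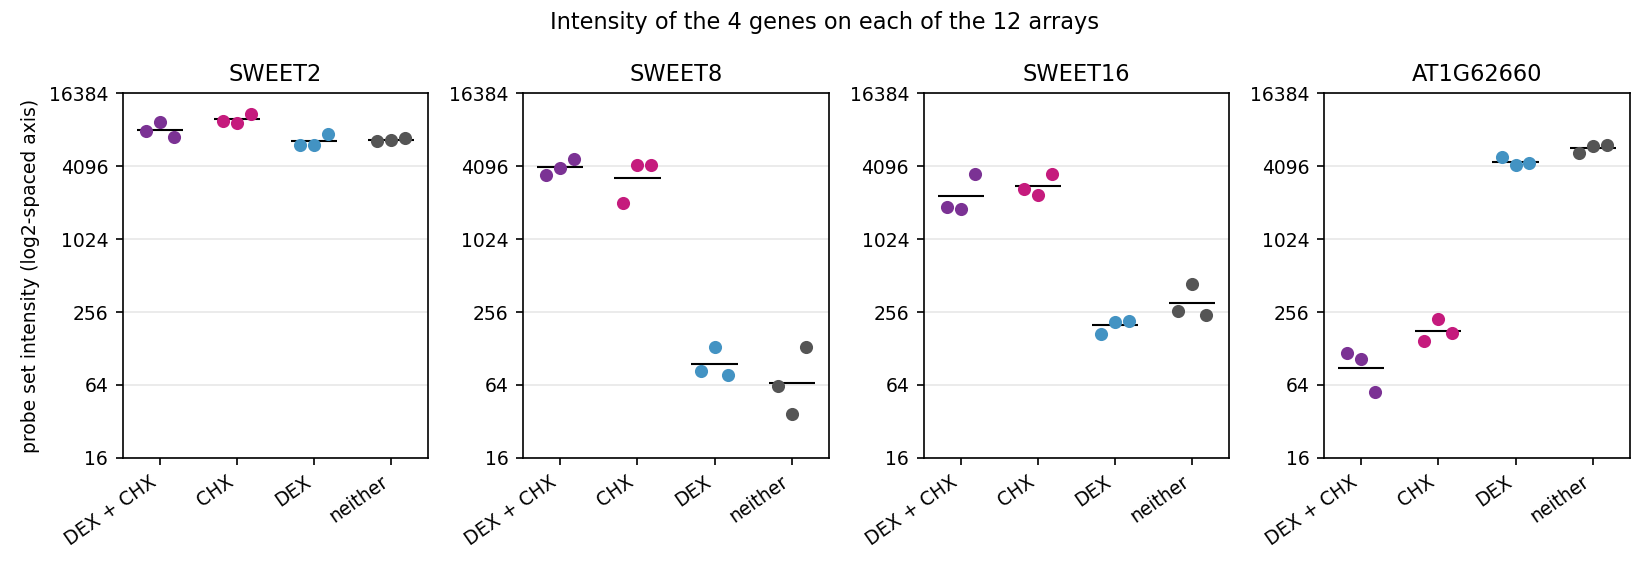
Probe set intensity (log2-spaced axis) of SWEET2, SWEET8, SWEET16 and AT1G62660 on each array, with 1 point per array, 3 per group, and a bar at the mean of the log2 values. SWEET8 and SWEET16 sit high in the 6 arrays with CHX and low in the 6 without, AT1G62660 the reverse. SWEET2 lies between 6118 and 11091 on all arrays, and the sign of its CHX difference turns under quantile normalization.

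Read as group means of log2 intensity, SWEET8 was at 11.98 ± 0.22 (SD, n = 3) with both treatments, 11.69 ± 0.60 with CHX alone, 6.56 ± 0.42 with DEX alone and 6.06 ± 0.92 with neither. The 2 groups with CHX overlapped each other, as did the 2 without it. SWEET16 ran at 11.17 ± 0.54 with both, 11.46 ± 0.30 with CHX alone, 7.63 ± 0.20 with DEX alone and 8.24 ± 0.46 with neither. Its groups with CHX overlapped, while those without CHX did not. AT1G62660 gave 6.47 ± 0.57 with both, 7.48 ± 0.31 with CHX alone, 12.13 ± 0.12 with DEX alone and 12.50 ± 0.12 with neither, and its 4 groups followed each other in that order with no overlap between neighbours. The share of all probe sets with such an order was not computed, so nothing is read from it. SWEET2 lay between 12.81 and 13.23 with both and was at 13.29 ± 0.13 with CHX alone, 12.69 ± 0.18 with DEX alone and 12.73 ± 0.03 with neither, and among these only the arrays with CHX alone stood clear of those without CHX.

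Of the 4 genes, 3 were higher and 1 lower with CHX in cells without DEX, with no overlap of arrays, where 16.2% of all 22746 probe sets were higher and 24% lower by the same rule, 40.2% in all. SWEET2 is counted as higher here, though its direction depended on the scaling of the arrays. With DEX present, 2 were higher and 1 lower, where 13.2% of all probe sets were higher and 27.5% lower, 40.7% in all. The genes were chosen on these contrasts, so nothing is read from the counts. Among the 16774 probe sets above the floor on every array of the comparison without DEX, SWEET8 had the 25th largest rise, SWEET16 ranked 270 and SWEET2 4011, and AT1G62660 had the 10th largest fall. With DEX, among 16472 such probe sets, the ranks were 29 for SWEET8, 204 for SWEET16 and 4067 for SWEET2 from the top, and 4 for AT1G62660 from the bottom. Over all probe sets the median log2 change was -0.05 without DEX and -0.46 with DEX, and centring arrays on their medians moved these by 0.13 and 0.49. SWEET8, SWEET16 and AT1G62660 kept their direction for CHX under every alternative run.

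**Figure D2:**
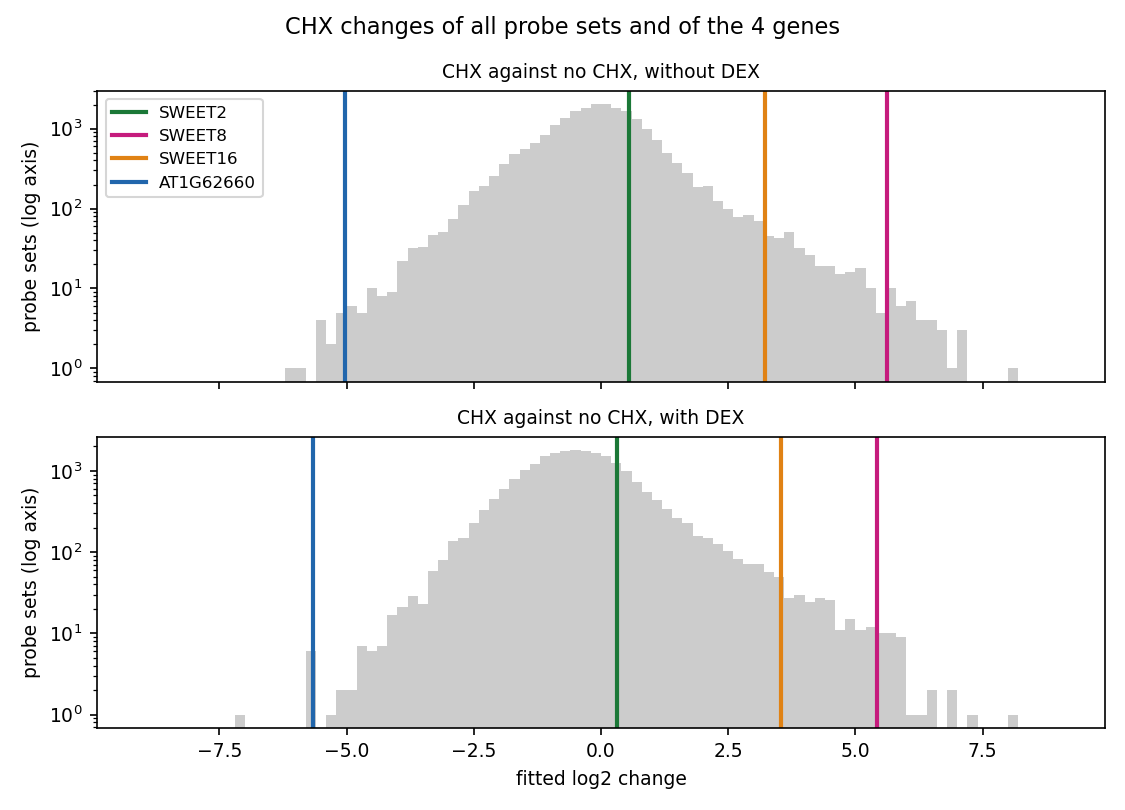
Histogram of fitted log2 changes of all 22746 probe sets (log-scaled counts) for CHX against no CHX, without DEX (upper panel) and with DEX (lower panel), with a vertical line for each of the 4 genes. SWEET8 (5.63 and 5.42) and SWEET16 (3.23 and 3.54) lie in the upper tail, AT1G62660 (-5.03 and -5.66) in the lower tail and SWEET2 (0.56 and 0.31, or -0.01 and -0.39 after quantile normalization) in the body of the distribution.

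Other measurements moved with CHX too. PYK10 fell 26.9-fold without DEX (limma adjusted p = 2.51e-09) and 22.2-fold with DEX (limma adjusted p = 3.54e-09), and RCA fell 2.26-fold (limma adjusted p = 0.0128) and 2.92-fold (limma adjusted p = 0.00204). The ratio of the 3' to the 5' ubiquitin control probe sets, which depends on how complete the RNA and its labelled copies are, was 5.08 to 6.10 with CHX alone and 6.26 to 7.58 with neither, without overlap, and 6.51 to 8.01 with both treatments against 5.97 to 6.78 with DEX alone, with overlap. The GAPDH ratio was 2.19 to 2.30 with CHX alone and 2.49 to 4.17 with neither, without overlap, and 2.50 to 4.33 with both treatments against 1.98 to 2.93 with DEX alone, with overlap. The actin ratio overlapped in both comparisons. It was 5.66 to 16.62 with CHX alone and 5.37 to 9.24 with neither. With both treatments it was 4.79 to 11.44, against 8.57 to 12.01 with DEX alone. The part of these measures in the changes of SWEET8, SWEET16 and AT1G62660 was not tested.

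The DEX comparison asks for genes that respond to ABI3 in the nucleus, and its estimates for these 4 genes lay between -1.01 and 0.50 on the log2 scale. Without CHX, AT1G62660 was lower with DEX by -0.37 on the log2 scale (SE 0.26) and SWEET16 by -0.60 (SE 0.29), each with no overlap between groups. SWEET8 differed by 0.50 (SE 0.42) and SWEET2 by -0.04 (SE 0.16), both with overlapping arrays. By the same rule 6.87% of all probe sets were higher and 4.69% lower with DEX, 11.6% in all, and nothing is read from the count of 2. The SWEET16 value was -0.34 without replicate 2 of cells with neither treatment, and that of SWEET8 was 0.07 without the same array. Among 17216 probe sets above the floor on all arrays compared, SWEET16 ranked 604 and AT1G62660 1898 from the largest fall.

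With CHX present, AT1G62660 was the one gene of the 4 whose arrays did not overlap: it was 2.01-fold lower with both treatments than with CHX alone (log2 change -1.01, SE 0.26), rank 516 from the largest fall among 16448 probe sets, where 4.26% of all probe sets were higher and 7.68% lower in this way, 11.9% in all. The readings behind it, 56.3 to 118.2 with both treatments and 146.9 to 225.0 with CHX alone, are all far under its level without CHX, and the change was -0.68 without replicate 3 of both treatments. SWEET2 differed by -0.28 (SE 0.16), SWEET16 by -0.29 (SE 0.29) and SWEET8 by 0.28 (SE 0.42), and SWEET8 went to -0.07 without replicate 1 of CHX alone. The ubiquitin ratio was also higher on all arrays with both treatments (6.51 to 8.01) than on those with CHX alone (5.08 to 6.10), and so was the same ratio for GAPDH (2.50 to 4.33, against 2.19 to 2.30). The actin ratio overlapped, at 4.79 to 11.44 with both treatments and 5.66 to 16.62 with CHX alone. The part of these ratios in the AT1G62660 difference was not tested.

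The difference between the CHX change with DEX and that without it was -0.63 (SE 0.36) for AT1G62660, 0.31 (SE 0.41) for SWEET16, -0.24 (SE 0.22) for SWEET2 and -0.21 (SE 0.59) for SWEET8. Each was under 2 standard errors in size. With arrays centred on their medians the values were -0.28 for AT1G62660, 0.67 for SWEET16, 0.11 for SWEET2 and 0.14 for SWEET8. The sign for SWEET8 also turned with a floor of 64 (0.065), quantile normalization (0.087), array weights (0.13) and without the 2 arrays of lowest weight (0.23), a setting chosen after seeing the data. With single arrays left out, the SWEET8 value ran from -0.70 to 0.22, so its sign was not kept there either. That of SWEET16 was 0.001 without replicate 3 of both treatments.

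**Figure D3:**
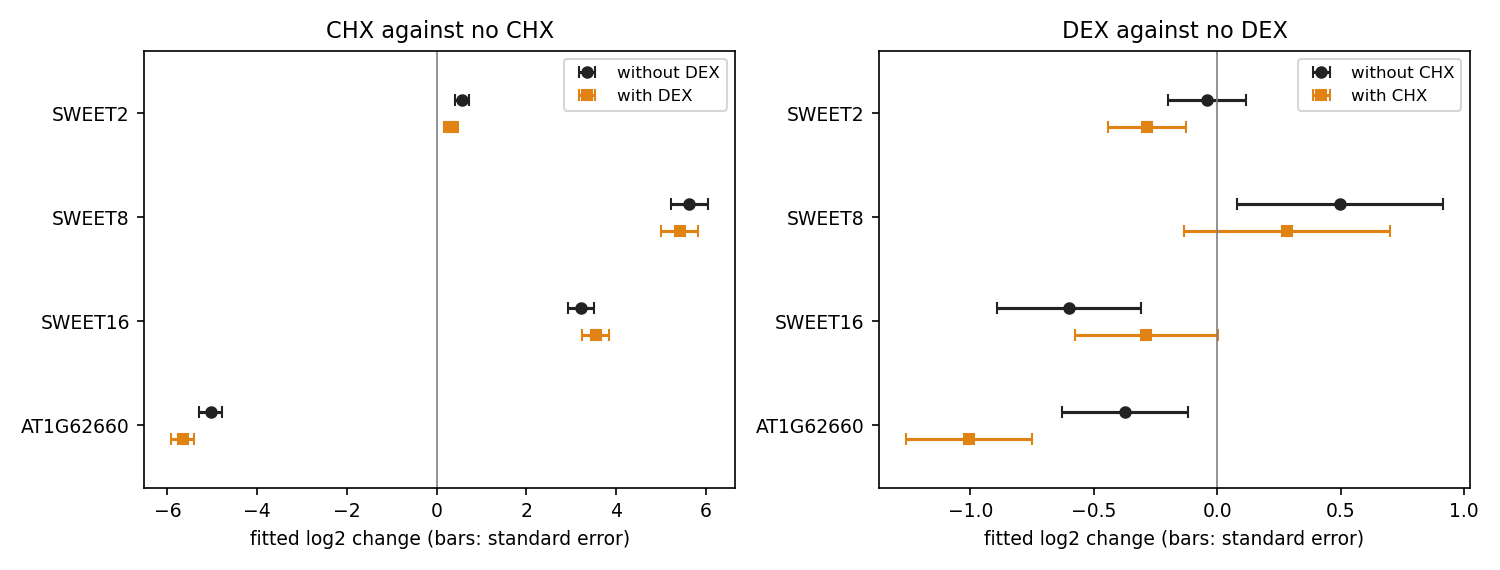
Fitted log2 changes of the 4 genes (points) with their standard errors (bars), for CHX against no CHX (left, without and with DEX) and DEX against no DEX (right, without and with CHX), 3 arrays per group. The CHX changes of SWEET8, SWEET16 and AT1G62660 lie far from 0 in both settings, while the DEX changes of all 4 genes lie between -1.01 and 0.50. The CHX changes of SWEET2, 0.56 and 0.31, turn sign under quantile normalization.

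The other SWEET genes were tested in the fit over all probe sets. They are what remained of the family after SWEET2, SWEET8 and SWEET16 had been taken out with their values known, so their counts describe that remainder and not the family. Of the other 14 SWEET genes listed, 13 were named alone by a probe set in the annotation used. Of these, 1 rose with CHX (limma adjusted p under 0.05) while 12 did not pass, both without and with DEX. SWEET1, a glucose carrier of the same clade as SWEET2, rose 3.37-fold without DEX (log2 change 1.75, SE 0.41; limma adjusted p = 0.00549) and 3.00-fold with DEX (1.58, SE 0.41; limma adjusted p = 0.00986). Its intensity was 219.2 to 455.2 with both treatments and 377.3 to 682.3 with CHX alone, against 82.8 to 167.8 with DEX alone and 95.5 to 188.5 with neither, so its arrays with CHX lay above those without. Of the tested probe sets, 10.9% rose in the same way without DEX, and 16.1% fell, 26.9% in all. With DEX, 10.6% rose and 20.4% fell.

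Most other SWEET genes were dim on these arrays. Of the 13, 11 were at or under the floor on at least 1 array, and none of those 11 read above 127.8 on any array. SWEET7 and SWEET13, a plasma membrane sucrose carrier, were at or under the floor on all 6 arrays with CHX. The other SWEET genes had a median log2 change of 0.00 without DEX, with 7 of 13 above 0, and -0.76 with DEX, with 2 of 13 above 0, against -0.05 and -0.46 for all probe sets. SWEET17, the tonoplast fructose carrier most closely related to SWEET16, was measured on all arrays and is named after its values were seen. It read 127.9 to 248.1 with both treatments and 190.6 to 240.4 with CHX alone, against 200.7 to 254.4 with DEX alone and 170.8 to 411.8 with neither. Its log2 change for CHX was -0.33 (SE 0.36; limma adjusted p = 0.598) without DEX and -0.33 (SE 0.36; limma adjusted p = 0.537) with DEX, where SWEET16 stood at 3.23 and 3.54; the difference between these genes was not tested.

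Of the 16 other invertase genes listed, 1 was named alone by a probe set in the annotation used. cwINV6 carries the name of a cell wall invertase, though the enzyme is known to act on fructans. It rose with CHX, 4.49-fold without DEX (log2 change 2.17, SE 0.28; limma adjusted p = 5.75e-05) and 2.84-fold with DEX (SE 0.28 on the log2 scale; limma adjusted p = 0.00111), while AT1G62660 was lower. Its intensity was 655.9 to 1320.2 with both treatments and 992.0 to 1595.6 with CHX alone, against 274.3 to 323.3 with DEX alone and 214.1 to 327.3 with neither. The arrays with CHX were all above those without.

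Of 6 measured genes on the list of monosaccharide and polyol carriers, 2 fell and 4 did not pass, without DEX and with it. Over all tested probe sets, 16.1% fell without DEX and 20.4% with it, so nothing is read from this count. None of the polyol carriers on that list was named alone by a probe set in the annotation used. TMT2, a tonoplast carrier that brings hexoses into the vacuole, fell 5.79-fold (log2 change -2.53, SE 0.34; limma adjusted p = 8.15e-05) and, with DEX, 4.62-fold (-2.21, SE 0.34; limma adjusted p = 0.000254). Its intensity was 94.0 to 175.2 with both treatments and 88.7 to 146.3 with CHX alone, against 430.9 to 687.6 with DEX alone and 459.8 to 824.9 with neither. SFP1, a carrier of the ERD6-like family, fell 2.88-fold (limma adjusted p = 0.000136) and, with DEX, 3.07-fold (limma adjusted p = 8.17e-05). None of the 4 measured genes of the STP family of plasma membrane hexose carriers passed: the log2 changes without DEX were 1.08 (SE 1.19) for AT5G61520, 0.50 (SE 0.84) for AT1G34580, 0.06 (SE 0.62) for AT3G19940 and 0.00 for AT5G26250, which was at or under the floor on every array of that comparison. Without replicate 2 of cells with neither treatment, the changes were -0.18 for AT5G61520, -0.24 for AT1G34580 and -0.29 for AT3G19940. With DEX, on all arrays, the changes were -2.12 (SE 1.19) for AT5G61520 and -0.83 (SE 0.84) for AT1G34580. They were -1.015 (SE 0.62) for AT3G19940 and 0.12 (SE 0.285) for AT5G26250.

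Among enzymes of sugar use, none of the listed hexokinase genes was named alone by a probe set. Of 6 measured fructokinase genes, 2 fell and 4 did not pass, in both settings. Of all tested probe sets, 16.1% fell without DEX and 20.4% with it, and nothing is read from the count of 2. AT2G31390, a fructokinase gene, fell 4.83-fold without DEX (log2 change -2.27, SE 0.17; limma adjusted p = 5.41e-07) and 4.91-fold with DEX (-2.30, SE 0.17; limma adjusted p = 4.85e-07). AT5G51830, also a fructokinase gene, fell 2.15-fold (limma adjusted p = 0.027) and 2.58-fold (limma adjusted p = 0.0076); the first of these calls was lost in 5 of 22 alternatives. None of the 3 measured genes for sucrose phosphate synthase or phosphatase passed without DEX: the log2 changes were 1.55 (SE 0.63; limma adjusted p = 0.0936) for AT3G54270, 0.13 (SE 0.37) for ATSPS4F and -0.04 (SE 0.31) for AT2G35840. AT3G54270 read 24.1 on replicate 2 of cells with neither treatment, against 147.3 and 159.2 on the others of that group, and its change was 0.66 without that array. It passed the threshold in 3 of 22 alternatives, with limma adjusted p from 0.0138 to 0.318 over all of them. The invertase inhibitor, SUC sucrose carrier and sucrose synthase lists had no gene named alone by a probe set.

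Over the 6 lists with at least 1 gene named alone by a probe set, 33 of 80 genes were measured besides the 4 described. The 3 lists with no such gene are not in the 80. CHX raised 2 of them and lowered 4 without DEX, and raised 2 and lowered 4 with DEX, with 27 not past the threshold in each setting, where limma called 26.9% and 31% of all probe sets. The called genes were those named above. Without replicate 2 of both treatments the count with DEX was 10 instead of 6. DEX gave limma calls for 0 of the 33, with or without CHX, where 0.0132% of all probe sets passed without CHX and 0.273% with it (0.255% higher and 0.0176% lower); 0 and 1 had an unadjusted p under 0.05. The interaction likewise gave limma calls for 0 of the 33, with 0 at an unadjusted p under 0.05, where 0.0044% of all probe sets passed. The median standard error of a DEX change over all probe sets was 0.45 on the log2 scale.

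**Figure D4:**
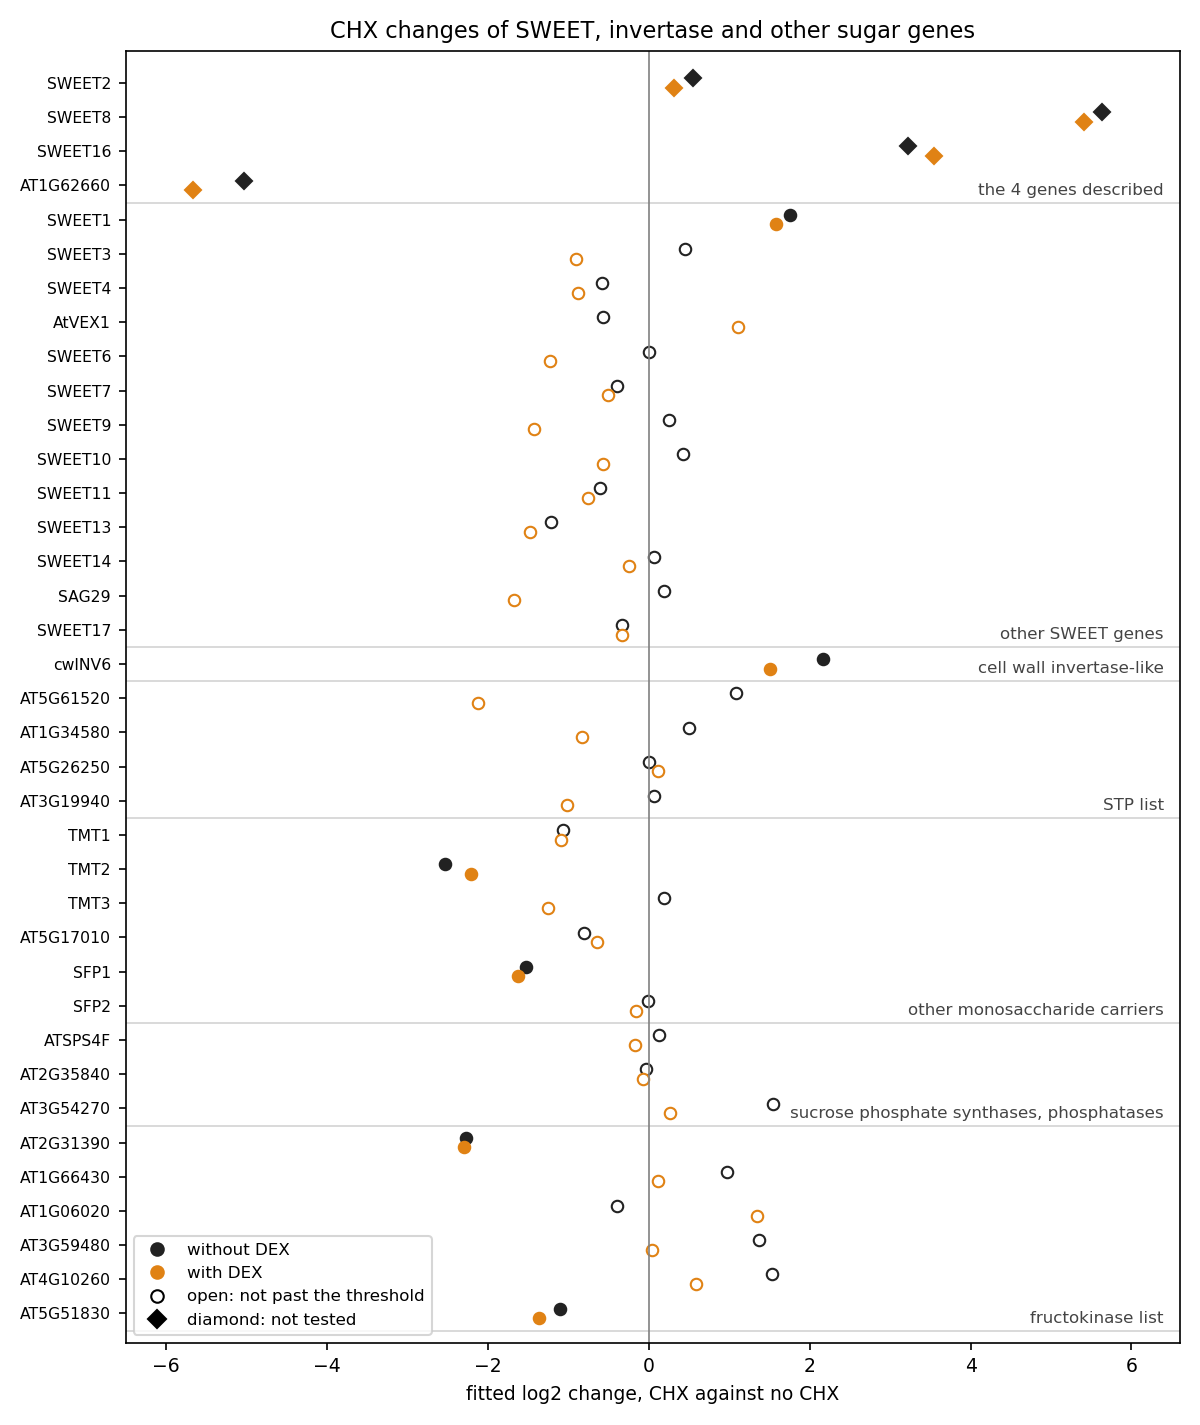
Fitted log2 change for CHX against no CHX, without DEX (black) and with DEX (orange), of the 4 genes described (diamonds, not tested) and the 33 other measured sugar genes by list; filled circles passed the threshold in limma and open circles did not. AtVEX1 and SAG29 are other names of SWEET5 and SWEET15. SWEET1 and cwINV6 are the filled circles above 0, and TMT2, SFP1, AT2G31390 and AT5G51830 those below 0.

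The genes whose log2 values followed each of the 4 most closely over the 12 arrays were searched among 12043 others. The measure of likeness was Pearson's r, and since the arrays with and without CHX form separate clusters for 3 of the 4 genes, r within the 6 arrays of each kind is given as well. All of these values come from the same arrays and describe them only.

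SWEET2 was followed most closely by SWEET1 (r 0.959; 0.968 within arrays with CHX and 0.828 within those without). AT3G44370 came next (0.938; 0.899 and 0.759), then AT2G23200, a protein kinase family gene (0.924; 0.957 and 0.116). The CHX change of SWEET1, 1.75 without DEX, was larger than that of SWEET2, 0.56.

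For SWEET8 the closest were AT4G28703 (r 0.993; 0.823 with CHX and 0.785 without), AT1G20823, a RING finger protein gene (0.993; 0.509 and 0.936), and IAA30, an Aux/IAA family gene of auxin response (0.992; 0.415 and 0.887). AT4G28703 and IAA30 had CHX changes of 4.75 and 4.42 without DEX, beside 5.63 for SWEET8, and AT1G20823 one of 2.07.

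For SWEET16 they were AT2G39210, a major facilitator family gene (r 0.991; 0.843 with CHX and 0.867 without), AT3G05320 (0.985; 0.792 and 0.602) and AT4G29780 (0.984; 0.756 and 0.590). Their CHX changes without DEX, 2.05, 1.85 and 2.64, were all under that of SWEET16.

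For AT1G62660 they were AT5G12010 (r 0.995; 0.906 with CHX and 0.768 without), SGP1, a small GTPase gene (0.993; 0.893 and 0.053), and AT1G02305, a cathepsin B-type protease gene (0.993; 0.835 and 0.898). These had CHX changes of -3.39, -2.63 and -2.14 without DEX, smaller in size than the -5.03 of AT1G62660.

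Among arrays alike in CHX, pairs of the 4 genes had no common sign of correlation, over 6 arrays each. Within the 6 arrays with CHX, r between pairs of the 4 ran from -0.26 (SWEET8 and AT1G62660) to 0.74 (SWEET2 and AT1G62660). Within the 6 without CHX it ran from -0.71 (SWEET8 and SWEET16) to 0.63 (SWEET16 and AT1G62660). SWEET8 and SWEET16, both high with CHX, had an r of 0.20 within the arrays with CHX.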

How the data were processed

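Per the labels, biotin-labelled copies of total RNA were measured, on 12 Affymetrix arrays with 3 per group. The authors deposited linear intensities for 22810 probe sets. On each array their mean, after trimming 2% from both ends, came to 500, as computed from the values. Which software summarised the probes is not given in the sources. Array precision is limited by the number of arrays.

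Intensities below 16 were raised to 16 before log2 was taken. Leaving out 64 control probe sets gave 22746 for testing, of which 13513 had 1 gene in the platform annotation, 503 several and 8730 none. Symbols followed the TAIR10.1 gene table. Columns were assigned by sample name.

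limma 3.58.1 (R 4.3.3) estimated the 4 group means from all 12 arrays, using lmFit and a trended eBayes; p-values were Benjamini-Hochberg adjusted across every probe set, with 0.05 as threshold. SDs describe 3 arrays, and standard errors are limma's. The fit was tested on simulated data. Python 3.11.15 made tables and figures.

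The 4 genes and the gene lists were chosen with earlier results of these data known. Each list's measured genes were all named where it had up to 4; otherwise the 2 largest rises and 2 largest falls past the threshold for CHX without DEX were named. The 3 most alike genes were sought among those above the floor on at least 8 arrays. Other settings tried were quantile normalization, median centring, a floor of 64, a pseudocount of 1 in place of the floor, no dim probe sets, an untrended fit, weighted arrays, a replicate block, fits to the compared arrays only, and single arrays left out. Promoter motifs were planned and not analysed here.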

Additional observations from a re-analysis of the deposited data

How the results depend on the processing

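SWEET8, SWEET16 and AT1G62660 kept the direction of their CHX changes in all alternatives run. Quantile normalization gave SWEET2 CHX changes of -0.012 without DEX and -0.39 with DEX, and 5 probe sets past the threshold for DEX without CHX and 12 for the interaction. Centring on medians gave, with DEX, CHX changes of 0.80 for SWEET2, 4.03 for SWEET16 and -5.17 for AT1G62660, DEX changes for SWEET2 of -0.24 without and -0.13 with CHX, interactions of 0.11 for SWEET2 and -0.28 for AT1G62660, and counts of 1 (DEX without CHX) and 7 (interaction). Counts for DEX without CHX were 3 as reported, 21 with a floor of 64, 0 without the variance trend, 1 with only the arrays compared and 1 without the 2 arrays of lowest weight. For DEX with CHX they were 62, 28 without the trend, 0 with only the arrays compared and 393 without those 2 arrays. For the interaction they were 1 as reported, 0 with a floor of 64, without the trend and without those 2 arrays, 5 with the pseudocount of 1 and 15 without the dimmest probe sets. Leaving out those 2 arrays, chosen after seeing the data, also gave 12 sugar genes past the threshold for CHX with DEX, 2 higher and 10 lower. The cause of these shifts was not tested.

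Leaving out 1 array at a time gave 5105 to 6380 probe sets for CHX without DEX, 5878 to 7949 for CHX with DEX, 0 to 3 for DEX without CHX, 21 to 112 for DEX with CHX and 0 to 15 for the interaction. For sugar genes it gave 5 to 7 for CHX without DEX and 6 to 10 with DEX. Genes that did not pass and changed sign for CHX without DEX were AT3G19940 (-0.055 after quantile normalization, -0.012 with a floor of 64, -0.15 with array weights and -0.29 without the 2 arrays; -0.29 to 0.29 with single arrays left out), AT2G35840 (0.14 quantile, 0.10 centred, 0.059 with weights and 0.18 without the 2 arrays; -0.37 to 0.25), AT1G34580 (-0.10 with weights and -0.24 without the 2 arrays; -0.24 to 1.22), AT5G61520 (-0.18 without the 2 arrays; -0.18 to 1.73) and AT5G26250 (0.13 centred and 0.14 with the pseudocount).

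With the replicate number as a block the interaction count was 0 and no other count moved by over 1.5 times. Deviations of the 18 same-numbered pairs of arrays correlated at -0.44 to 0.29, 4 of them above 0.1. Pairs of different numbers ran from -0.25 to 0.33. These values cannot tell whether samples of the same number shared a preparation. Each of the 4 genes had 1 probe set, so averaging probe sets gave no further value. The number of arrays limits what DEX changes can be seen.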
